A study of Cavia porcellus with 24 samples.

Results

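The response of the carotid endothelium to a high fat diet was compared in second generation (F2) guinea pigs whose grandmothers (F0) were food restricted, as 3 high fat fed animals (PR-C-H, animals 43, 46 and 59) against 3 animals on control chow (PR-C-C, animals 41, 47 and 58), 6 of the 24 sequenced animals. The animals were chosen by their labels for generation, F0 ration and offspring diet. F0 dams of the PR arm ate 70% of the average ad libitum intake from before mating and 90% from day 34 of gestation through lactation, and dams of the PC arm ate 100%. The F1 mothers of all F2 animals stayed on control chow and were mated to purchased, unrelated males. F2 animals were weaned at 28 days, ate control chow (13% of energy from fat) until 8 weeks of age, and then either continued on it or received high fat chow (38% of energy from fat, from a base supplemented with 0.25% cholesterol, pork fat at 15% and fructose at 2.5%) for 12 weeks.

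At 20 weeks a carotid artery was rinsed of blood and then flushed with TRIzol, a lysis reagent, and the polyA RNA of the lysate was sequenced, 1 library per animal. Each group held males and a female, with the same number of each in both, and the labels do not give litters. The other groups used here are the F2 animals of the PC arm (PC-C-C on control chow, PC-C-H on high fat chow) and the F1 animals of both arms (PC-C and PR-C on control chow, PC-H and PR-H on high fat chow), all of the same age and time on diet, with 3 animals each. Values are normalized counts, the reads on a gene divided by 1 size factor per library. Calls are those of limma on log2(normalized count + 1) over 13224 genes, at a p-value under 0.05 after Benjamini-Hochberg adjustment. With 3 animals on each side, an exact permutation test of 1 gene cannot go below 0.1, and the calls lean on a variance that limma shares across genes. PC-C-H animal 51, absent from the study's list of animals, entered no test.

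The 6 libraries held 14061522 to 24580498 reads in PR-C-C and 25557093 to 31148123 in PR-C-H. The 24 libraries also fall into 2 sets that the labels do not name. All 3 PR-C-C animals, PC-C-C animals 54 and 55 and PC-C-H animal 51 form a set of 6, and the remaining animals, with all 3 PR-C-H animals among them, a set of 18. Of the 13224 genes, 327 (2.47%) separated the 6 from the 18 without overlap. The PR-C-H against PR-C-C comparison therefore differs in diet and in library set at once, and within these 6 animals both cannot be told apart. PC-C-C animal 52 is the F2 animal on control chow that lies in the set of 18, so for every gene its level was read beside those of animals 54 and 55. In bulk RNA of this kind, fewer cells of a type and less RNA per cell also cannot be told apart.

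Endothelial cells line the artery and take up and release cholesterol with circulating lipoproteins. When cellular oxysterols are high, liver X receptors (LXR) switch on genes for cholesterol export and fatty acid synthesis and genes that limit uptake through the LDL receptor. Abcg1 exports cholesterol to high density lipoprotein, Mylip is the ubiquitin ligase that marks the LDL receptor for degradation, Srebf1 encodes a transcription factor of lipid synthesis, and Scd1 makes monounsaturated fatty acids. Names were available for 147 genes, 141 of them tested, and other genes are given by guinea pig Ensembl identifier.

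The lipid genes were higher in PR-C-H than in PR-C-C. Abcg1 (ENSCPOG00000015194) had 199, 278 and 203 normalized counts in PR-C-C animals 41, 47 and 58 and 2375, 3114 and 2908 in PR-C-H animals 43, 46 and 59. The lowest high fat animal lay far above the highest control animal. Its log2 fold change was 3.63 (SE, the standard error of the model, 0.56, adjusted p = 0.0022, limma), a 12.4-fold difference. PC-C-C animals 52, 54 and 55 had 157, 360.3 and 223 normalized counts of Abcg1, so the control animal outside the set of 6 had the lowest level of the 3. Srebf1 (ENSCPOG00000002439) had 69.2, 71.4 and 60.5 normalized counts in PR-C-C, against 556, 1202 and 832 in PR-C-H. The spread within PR-C-H was wide, and animal 46 was the highest of all 24 animals, yet the groups stayed apart. Srebf1 rose by 3.60 on the log2 scale (SE 0.54, adjusted p = 0.0017, limma), and PC-C-C animals 52, 54 and 55 had 136, 76.0 and 47.1 normalized counts.

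Mylip (ENSCPOG00000002917) had 422, 572 and 378 normalized counts in PR-C-C, against 1513, 1852 and 1629 in PR-C-H. It had the smallest relative error of the 4 lipid genes, with a log2 fold change of 1.88 (SE 0.22, adjusted p = 0.00025, limma). Its levels in PC-C-C animals 52, 54 and 55, at 425, 504 and 439 normalized counts, all lay within the PR-C-C range. Scd1 (ENSCPOG00000032751) had 326, 349.6 and 149 normalized counts in PR-C-C, against 778, 1224 and 895 in PR-C-H, a log2 fold change of 1.88 (SE 0.41, adjusted p = 0.018, limma). PC-C-C animal 52 had 512 normalized counts of Scd1, between the groups, while animals 54 and 55 had 235 and 264. The Scd1 call was lost without PR-C-C animal 58 (adjusted p = 0.086), PR-C-H animal 46 (0.093) or PR-C-H animal 59 (0.060), and the other 3 lipid genes kept theirs whichever animal was left out.

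A pair of named genes outside lipid metabolism also rose. Samd4a (ENSCPOG00000014637), an RNA-binding repressor of translation, had 360.1, 229.6 and 281 normalized counts in PR-C-C, against 797, 733 and 629 in PR-C-H. The groups were separate, and the log2 fold change was 1.32 (SE 0.24, adjusted p = 0.0066, limma). PC-C-C animal 52, at 439.7 normalized counts, lay above all PR-C-C animals, and animals 54 and 55 had 282 and 339. Ppp1r2 (ENSCPOG00000040784), an inhibitor of protein phosphatase 1, had 17186, 12932 and 11569.6 normalized counts in PR-C-C, against 24258, 29201 and 25168 in PR-C-H, a log2 fold change of 0.93 (SE 0.20, adjusted p = 0.016, limma). PC-C-C animals 52, 54 and 55 had 14598, 14242 and 15322, all within the PR-C-C range. The Ppp1r2 call was lost without PR-C-C animal 47 (adjusted p = 0.077) or 58 (0.071), or PR-C-H animal 46 (0.084) or 59 (0.053).

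**Figure D1:**
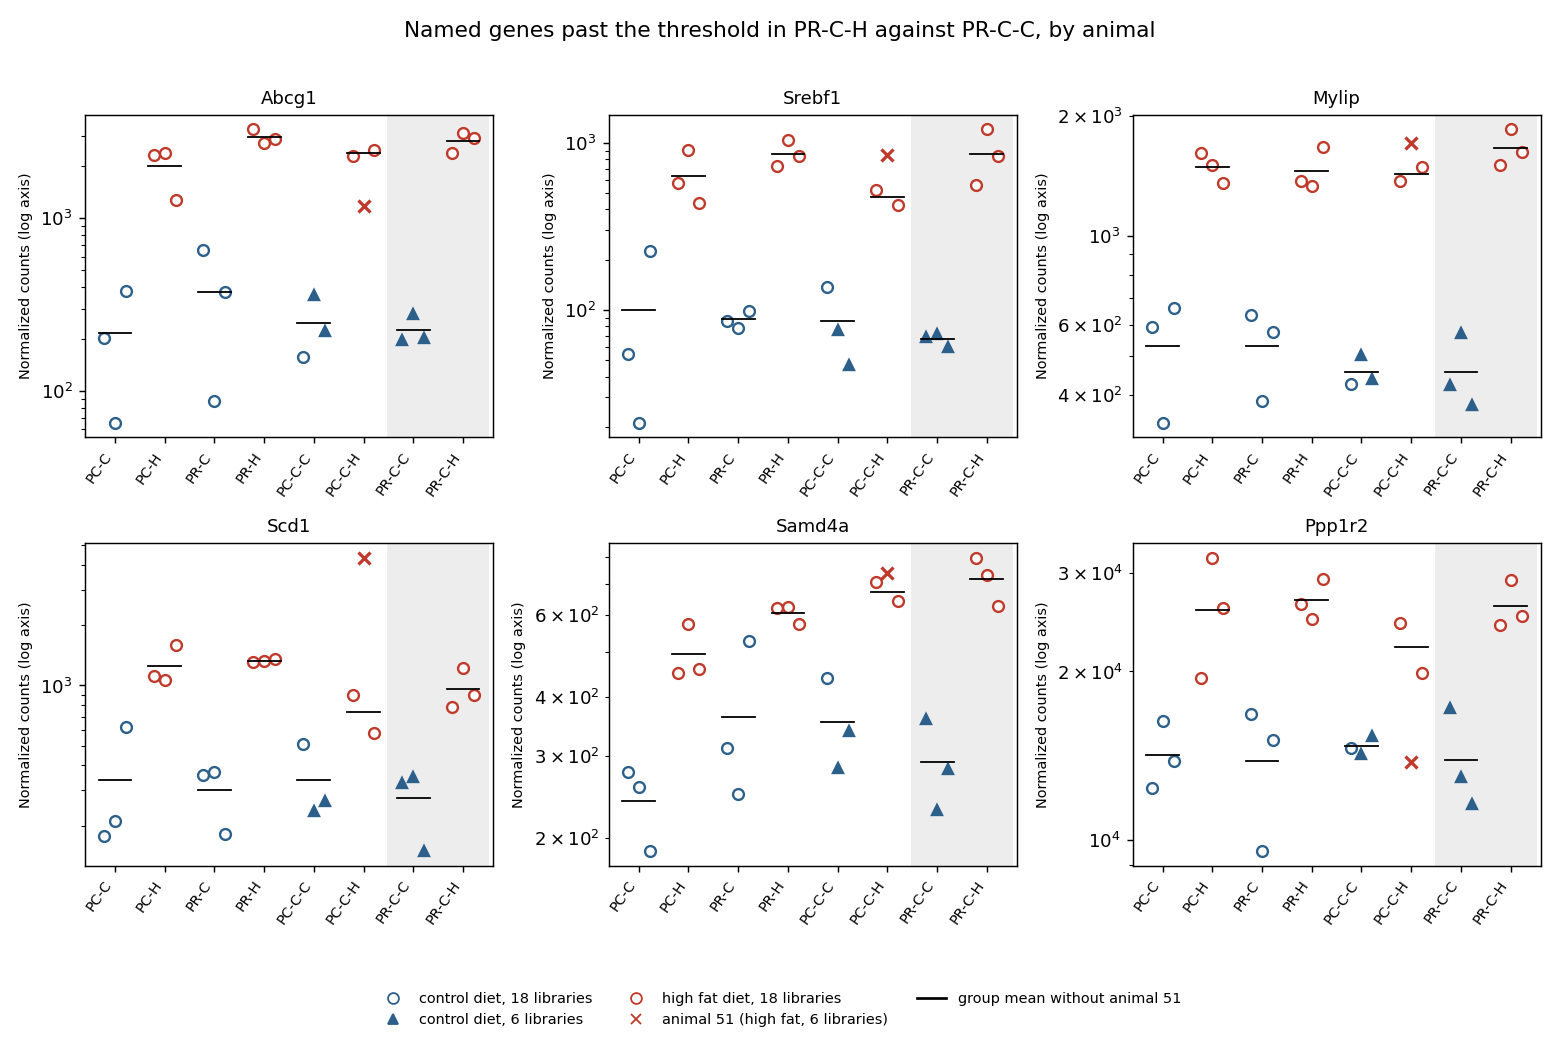
Normalized counts (log axis) of 6 named genes in every animal of the 8 groups, with PR-C-C and PR-C-H shaded; blue marks control chow, red high fat chow, filled triangles the control animals of the set of 6 libraries, a cross animal 51 and bars group means without animal 51. PR-C-H lies above PR-C-C for every gene, and for Abcg1, Srebf1, Mylip and Ppp1r2 the 11 high fat animals tested lie above all 12 control animals.

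These genes were then read in the other groups. Over the 23 animals tested, which include the 6 compared here, 4 of 13224 genes separated all 11 high fat from all 12 control animals, and the 4 were Abcg1, Srebf1, Mylip and Ppp1r2. Abcg1 ranged from 65.5 to 658 normalized counts in the control animals and from 1277 to 3268 in the high fat animals. The lowest high fat value was that of PC-H animal 34, the animal noted with a mix of both chows. Mylip ranged from 340.3 to 659 and from 1336 to 1852. The F1 diet comparison of the same arm, PR-H against PR-C, lies wholly within the set of 18 and shares no animal with the F2 comparison. In it Abcg1 had a log2 fold change of 3.40 (SE 0.56, adjusted p = 0.030), Srebf1 of 3.27 (SE 0.54, adjusted p = 0.030) and Mylip of 1.48 (SE 0.22, adjusted p = 0.019), all with limma. These were the 3 genes called there with limma, 0.0227% of those tested. Log2 fold changes in F1 were also positive for Scd1 (2.20), Ppp1r2 (0.99) and Samd4a (0.81). With limma they did not pass (adjusted p = 0.11, 0.18 and 0.81). With DESeq2 Scd1 (adjusted p = 0.00098) and Ppp1r2 (adjusted p = 0.0049) passed in F1, and Samd4a did not (adjusted p = 0.52). The F2 and F1 log2 fold changes of these 6 genes differed by -0.33 to 0.51, with standard errors of 0.29 to 0.79, and no difference passed the test of the difference itself (adjusted p of 0.70 to 0.97, limma). The 95% interval of the difference was widest for Abcg1, from -1.42 to 1.89, and ran from -0.25 to 1.05 for Mylip.

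A comparison of PR-C-H with the F1 control animals of the same arm, PR-C, keeps to the set of 18 but crosses generations. It shares PR-C-H with the F2 comparison and PR-C with the F1 comparison, so it adds no new animals. It called 3 genes with limma (0.0227% of those tested), and these were Mylip (log2 fold change 1.67, adjusted p = 0.0031), Abcg1 (3.31, adjusted p = 0.039) and Srebf1 (3.22, adjusted p = 0.039). With 1 animal left out in turn, Mylip kept the call in 22 of 23 fits, losing it without PR-C-H animal 46 (adjusted p = 0.053), while Abcg1 kept it in 4 and Srebf1 in 3. Scd1 had 358, 368 and 181 normalized counts in PR-C animals 17, 25 and 36, below all PR-C-H animals, and a log2 fold change of 1.71 that did not pass (adjusted p = 0.61, limma).

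Over all genes, PR-C-H against PR-C-C gave 345 calls with limma, 2.61% of those tested, with 209 rising (1.58%) and 136 falling (1.03%) from PR-C-C to PR-C-H. Of the 345 genes, 6 had a name, the 6 described above. In 344 the 3 PR-C-H animals did not overlap the 3 PR-C-C animals, as in 26.3% of all genes tested. DESeq2 on the recovered reads called 689 genes, 4.96% of those it tested, and 337 of the 345 were among them. The number of calls fell to 135, 127 or 220 without PR-C-C animal 41, 47 or 58, and to 110, 114 or 121 without PR-C-H animal 43, 46 or 59. It rose to 552 without PC-C-C animal 52.

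Each of the 345 genes was placed on a scale with 0 at the PR-C-C mean and 1 at the PR-C-H mean of log2(normalized count + 1). PC-C-C animal 54 lay nearer PR-C-C for 90.1% of the genes and animal 55 for 87.8%, with median positions of 0.14 and 0.17. PC-C-C animal 52, on the same chow and in the same group as these, lay nearer PR-C-C for 38 of the 345 genes, with a median of 0.90. Over all genes tested the shares were 60.4% for animal 54, 55.1% for animal 55 and 37.7% for animal 52. The animals of this 1 group, all on control chow, thus fell on both sides of the scale, with 1 animal on one side and 2 on the other. The 6 F1 control animals lay nearer PR-C-C for 6.67% to 18.6% of the genes and the 6 F1 high fat animals for 6.96% to 40.6%, the highest being PC-H animal 34, whose entry among the study's animals notes a mix of both chows. PC-C-H animals 50 and 53 did so for 6.38% and 4.64%, and PC-C-H animal 51, fed high fat chow but in the set of 6, for 75.7%. The library of animal 51 had a median correlation of 0.835 with the others, where the remaining libraries had 0.936 to 0.974.

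**Figure D2:**
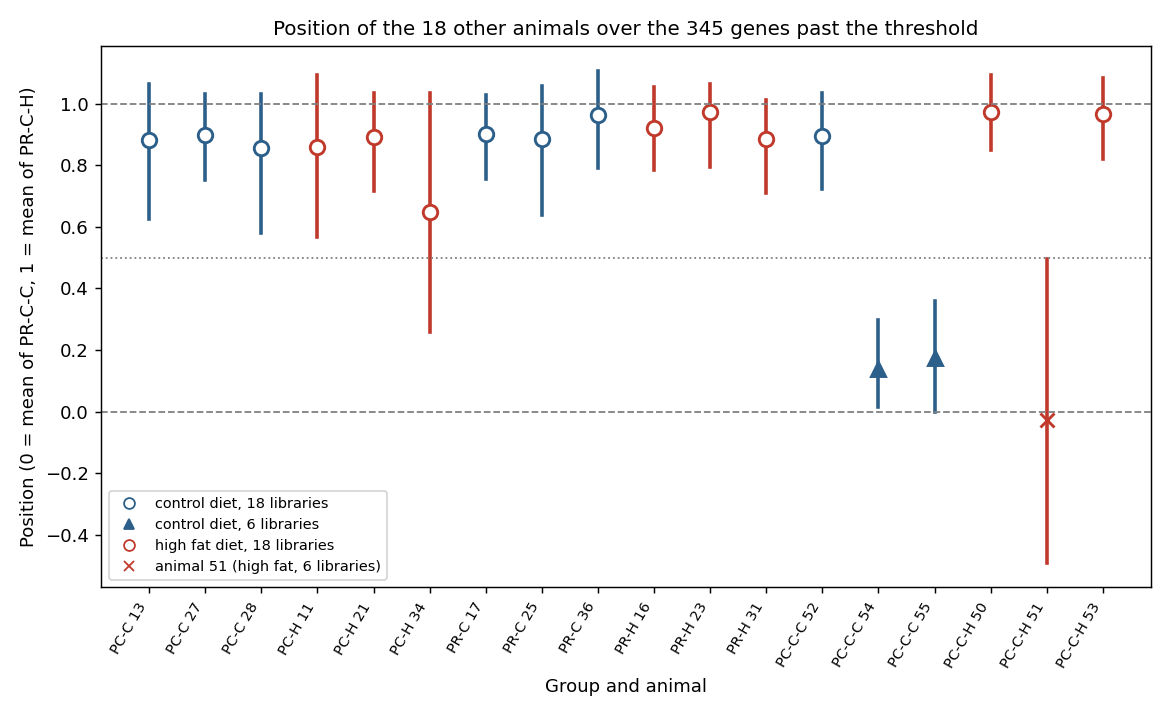
Position of each of the 18 animals outside the comparison over the 345 called genes, with 0 at the PR-C-C mean and 1 at the PR-C-H mean; points are medians over genes, bars run from the 25th to the 75th percentile, and the dotted line at 0.5 divides the scale. Animals 51, 54 and 55 of the set of 6 have medians of -0.03 to 0.17, and the 15 animals of the set of 18 have medians of 0.65 to 0.97 on either chow.

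Animals 54 and 55 both lay nearer PR-C-C for 285 of the 345 genes (82.6%, against 38.2% of all genes tested). Animal 52 joined them for 27 genes (7.83% of the called genes, against 13.2% of all genes tested), so that for these all 6 F2 control animals lay on one side. For 258 genes (74.8%, against 3305 of all genes tested) animals 54 and 55 lay nearer PR-C-C and animal 52 did not, which is the pattern of the set of 6. The remaining 60 genes did not have both 54 and 55 nearer PR-C-C. Of the 258 genes, 146 (56.6%) separated the 6 libraries from the 18 without overlap, against 3 of the 27 (11.1%) and 154 of the 345 (44.6%). The share of all genes tested was 2.47%, and since PR-C-C lies on one side and PR-C-H on the other, called genes were bound to hold more of them. The 27 and the 258 were split by animals 52, 54 and 55, which lie in different library sets. The class of 258 was therefore bound to hold the larger share, and the contrast between the classes is no separate evidence.

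The genes with the largest differences follow the library set. ENSCPOG00000003379 had 0, 2.55 and 0 normalized counts in PR-C-C, against 739, 802 and 983 in PR-C-H (adjusted p = 0.0013, limma). PC-C-C animals 54 and 55 had 2.45 and 1.12 and animal 52 had 834, and every F1 animal on either chow had 633 or more. ENSCPOG00000039839 had 0 normalized counts in all 3 PR-C-C animals and 141, 224 and 98.0 in PR-C-H, at least 38.3-fold higher against a floor of 3 reads per library (adjusted p = 0.0095, limma). It was at 0 in animals 51, 54 and 55 and at 459 in animal 52. Its call was lost without PR-C-H animal 46 (adjusted p = 0.0501).

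In the other direction, ENSCPOG00000036145 had 390.2, 736 and 843 normalized counts in PR-C-C, against 0 in all PR-C-H animals, at least 249.9-fold lower against the same floor (adjusted p = 0.0031, limma). It was at 0 in all 18 libraries of the larger set and at 536, 546 and 476 in animals 54, 55 and 51. DESeq2 did not call it (adjusted p = 0.25). ENSCPOG00000007538 had 912, 1028 and 956 normalized counts in PR-C-C, against 31.1, 27.8 and 26.6 in PR-C-H, and fell by 5.03 on the log2 scale (SE 0.75, adjusted p = 0.0017, limma). Animals 54, 55 and 51 had 912, 944 and 1029, and the 18 other libraries 24.3 to 53.3. In these 4 genes the high fat animal 51 had the level of the control animals of its library set, and the control animal 52 that of the high fat animals of its own.

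**Figure D3:**
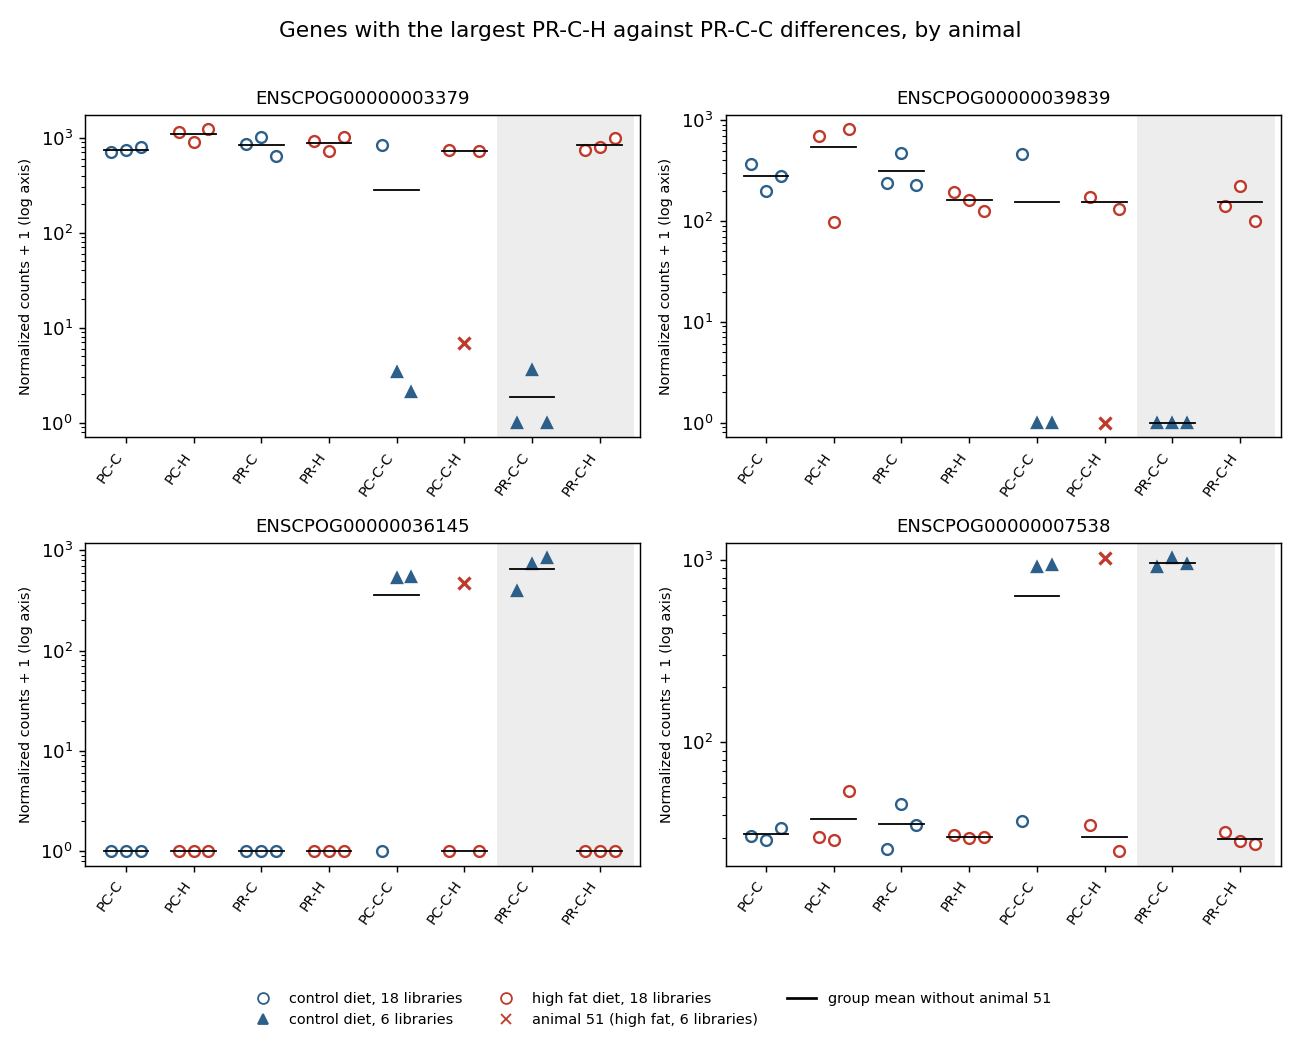
Normalized counts plus 1 (log axis) of the 2 genes with the largest increase and the 2 with the largest decrease from PR-C-C to PR-C-H, in every animal, with the symbols of the plot of named genes. Triangles and the cross (the set of 6 libraries) lie on one side and open circles (the set of 18) on the other, on control and high fat chow alike.

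The 27 genes with all 6 F2 control animals on one side included 5 named genes, Abcg1, Srebf1, Mylip, Samd4a and Ppp1r2. Of the 27 genes, 17 lay above and 10 below PR-C-C in the high fat animals. Scd1, the remaining named gene called, fell in the class where animals 54 and 55 lay nearer PR-C-C and animal 52 did not. Animal 52 lay at 0.53 on the scale for Scd1 and at 0.47 for Samd4a, on either side of the cut at 0.5. Within the set of 18, Scd1 rose by 2.20 on the log2 scale in PR-H against PR-C. High fat animal 51, of the set of 6, had 4333 normalized counts of Scd1. Among genes without a name in the class of 27, the largest increase was in ENSCPOG00000009387. It had 445, 169.7 and 111 normalized counts in PR-C-C, against 1659.5, 2399 and 1355 in PR-C-H (log2 fold change 3.10, SE 0.54, adjusted p = 0.0041, limma). PC-C-C animals 52, 54 and 55 had 339, 265 and 429, and the F1 groups PR-C and PR-H had 289 ± 171 and 1659.8 ± 273 (SD, n = 3 each), close to the F2 levels. PC-C-H animal 51, the high fat animal of the set of 6, had 1161. The F1 difference of this gene did not pass with limma (adjusted p = 0.13) and passed with DESeq2 (adjusted p = 0.0014). ENSCPOG00000040210 had 8.87, 10.2 and 29.3 normalized counts in PR-C-C, against 110.3, 89.8 and 104 in PR-C-H (log2 fold change 2.77, SE 0.47, adjusted p = 0.0039, limma). PC-C-C animals 52, 54 and 55 had 17.1, 11.03 and 12.3, but PR-C animals had 67.5 to 86.7, near their high fat counterparts at 103 to 137. Animal 51, on high fat chow, had 7.28, below every other animal.

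The genes with the largest decreases in the class had F1 log2 fold changes of 0.025 and 1.92 in PR-H against PR-C. ENSCPOG00000008206 had 151, 272 and 164 normalized counts in PR-C-C, against 15.5, 26.9 and 30.4 in PR-C-H, and fell by 2.96 on the log2 scale (SE 0.77, adjusted p = 0.043, limma). Animals 52, 54 and 55 had 124, 159 and 147, while PR-C and PR-H had 35.9 ± 28.7 and 34.2 ± 22.2 (SD, n = 3 each). High fat animal 51 had 329. The set of 6 libraries (147 to 329) lay above the set of 18 (9.23 to 124), so this gene also separated the library sets without overlap. Its call was lost without any 1 of the 6 animals compared (adjusted p of 0.084 to 0.19) and without PC-C animal 27, PC-C-C animal 54 or 55, PC-C-H animal 50 or 53 or PR-H animal 31 (0.051 to 0.056). ENSCPOG00000036998 had 31149.9, 18379.7 and 17279.7 normalized counts in PR-C-C, against 2562, 3398 and 3923 in PR-C-H, and fell by 2.73 (SE 0.43, adjusted p = 0.0022, limma). Animals 52, 54 and 55 had 12002, 14199 and 14812, between the groups and nearer PR-C-C.

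The F1 comparisons give the direction of these genes in other animals. Of the 27 genes, 21 (77.8%) had the F2 direction in PR-H against PR-C and 12 (44.4%) in PC-H against PC-C. Of the 258 genes the numbers were 129 and 121, of the 60 genes 21 and 15, and of all genes tested the shares were 52.2% and 44.3%. Taken in the F2 direction, the median log2 fold change in PR-H against PR-C was 0.15 for the 27 genes, 0.00068 for the 258 and -0.088 for the 60, where the F2 medians were 1.16, 1.19 and 0.82. The class of 27 also held large F1 differences, such as those of Abcg1, Srebf1 and Mylip. Of the 17 higher genes in the class of 27, 15 were higher in PR-H, from -0.18 to 3.40 on the log2 scale. Of the 10 lower genes 6 were lower, with a range of -0.21 to 1.92. In PC-C-H against PC-C-C, where 2 of the 3 control animals belong to the set of 6 and both high fat animals to the set of 18, 94.5% of the 345 genes had the same direction, against 68.2% of all genes tested.

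**Figure D4:**
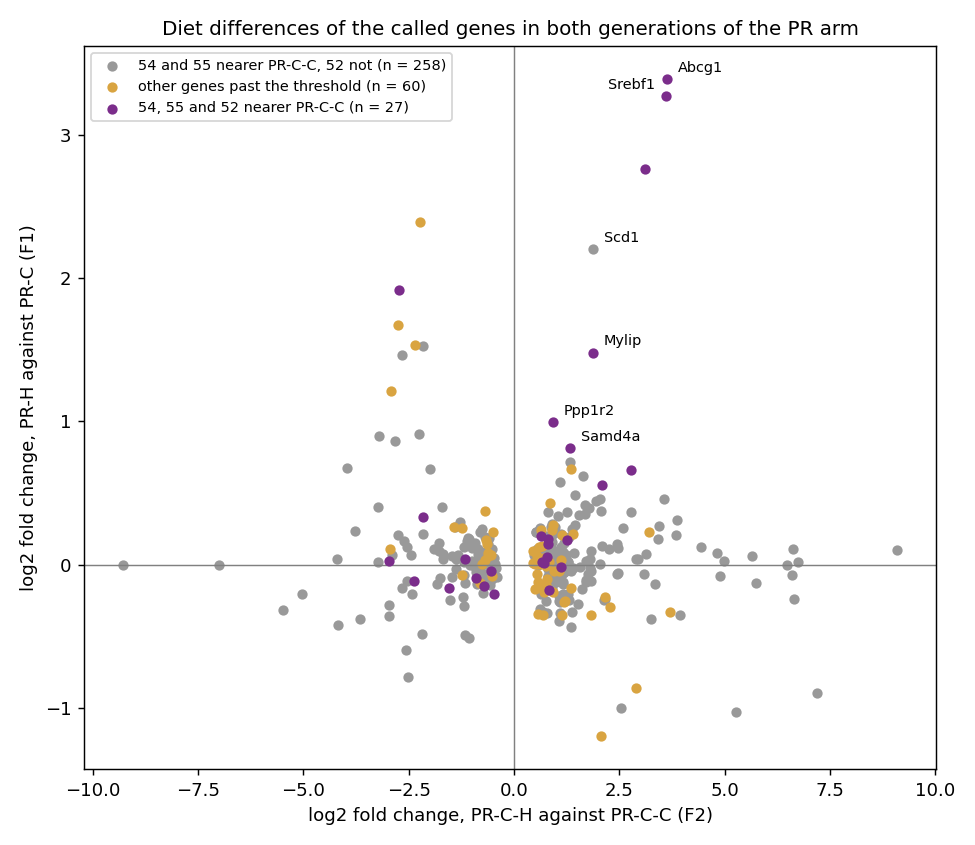
Log2 fold change of the 345 called genes in PR-C-H against PR-C-C (horizontal) and in PR-H against PR-C (vertical), 1 point per gene, coloured by the side of the scale on which PC-C-C animals 52, 54 and 55 lie. The 258 grey genes spread along the horizontal axis with a median of 0.00068 on the vertical, and Abcg1, Srebf1, Mylip, Scd1, Ppp1r2 and Samd4a are positive on both.

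A term for the library set was added to the model. Without animal 51 every group but PC-C-C lies on one side, so the term is estimated from animal 52 against animals 54 and 55. With limma 0 genes were then called and 551 had an unadjusted p-value under 0.05, against 2089 without the term, and the median standard error of all genes went from 0.24 to 0.42. DESeq2 with the term called 31 genes, 7 higher and 24 lower, and 2 of these were among the 345, Abcg1 (log2 fold change 4.52, adjusted p = 0.019) and Mylip (2.01, adjusted p = 0.0027). The estimates moved differently by gene. With limma and the term, Abcg1 was at 4.47 (SE 1.02), Mylip at 2.02 (0.40), Srebf1 at 2.42 (0.95), Ppp1r2 at 0.95 (0.37), Scd1 at 0.84 (0.71) and Samd4a at 0.82 (0.43). ENSCPOG00000003379 went to 0.83 (0.64), ENSCPOG00000036145 to -0.20 (1.25) and ENSCPOG00000007538 to -0.38 (0.52). The classes of 27 and 258 genes were split by these same 3 animals, so their medians with the term are fixed by the split and are not given. PR-C-H against PR-C needs no such term. Taken in the F2 direction, its median log2 fold change was 0.31 (27 genes), 0.072 (258 genes) and 0.058 (all genes tested). The 3 PR-C-H animals stand in both comparisons and helped to set that direction, so a positive median was favoured in advance.

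The diet response of the PR arm was then compared between F2 and F1. The difference between the responses passed for 10 genes with limma (0.0756% of those tested), 1 (0.00756%) more positive and 9 (0.0681%) more negative in F2, for 14 with edgeR and for 157 with DESeq2 (1% of those it tested). The count with limma ran from 1 without PR-H animal 31 to 152 without PC-C-C animal 52. Of the 10 genes, 5 belonged to the class that follows the set of 6, 1 to the class of 27 and 3 to the remaining called genes. The other was Ackr3 (ENSCPOG00000014142), an atypical chemokine receptor that removes CXCL12 without G protein signalling.

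Ackr3 had 6886, 4292 and 4502 normalized counts in PR-C-C, against 4007, 2170.4 and 1225 in PR-C-H. The groups did not overlap, but the log2 difference of -1.21 (SE 0.35, adjusted p = 0.072) did not pass with limma and passed narrowly with DESeq2 (adjusted p = 0.049). It passed with limma without PR-C-H animal 43 (adjusted p = 0.031). In F1 of the same arm, PR-C animals had 1435, 2051 and 1374 and PR-H animals 4163, 4484 and 4894, the opposite order (2.83-fold by limma, adjusted p = 0.35; adjusted p = 0.031, DESeq2). The difference between the F2 and F1 responses was -2.71 on the log2 scale (SE 0.50, adjusted p = 0.047, limma; adjusted p = 0.00038, DESeq2), and did not pass with TMM scaling in limma (adjusted p = 0.054) or with edgeR (adjusted p = 0.060). With limma it held in 12 of 23 fits with 1 animal left out. It was lost without PC-C animal 28, PR-C animal 17 or 36, any PR-C-C or PR-H animal, or PR-C-H animal 46 or 59, with adjusted p of up to 0.17.

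The F2 control animals of the PC arm had low Ackr3, at 2355, 1556 and 1725 normalized counts in animals 52, 54 and 55, below all PR-C-C animals. Animal 51, the high fat animal of the set of 6, had 7466, above all PR-C-C animals, and PC-C-H animals 50 and 53 had 8483 and 3641. The F2 diet response was thus -1.21 in the PR arm and 1.59 in the PC arm, a difference of -2.80 (SE 0.53) that did not pass with limma (adjusted p = 0.15) and passed with DESeq2 (adjusted p = 0.00062). With limma it passed without PC-C-H animal 53 or PR-C-H animal 43. ENSCPOG00000036998 was also higher in PR-H than in PR-C and lower in PR-C-H than in PR-C-C, with PR-C at 4444 ± 2340.1 and PR-H at 15421 ± 2511 normalized counts (SD, n = 3 each) where PR-C-C and PR-C-H had 22269.8 ± 7710.1 and 3294 ± 687. Animal 51 had 121529, the highest of all animals. The F2 and F1 responses of this gene differed by -4.65 on the log2 scale (SE 0.60, adjusted p = 0.0027, limma), and the call held in all 23 fits with 1 animal left out.

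**Figure D5:**
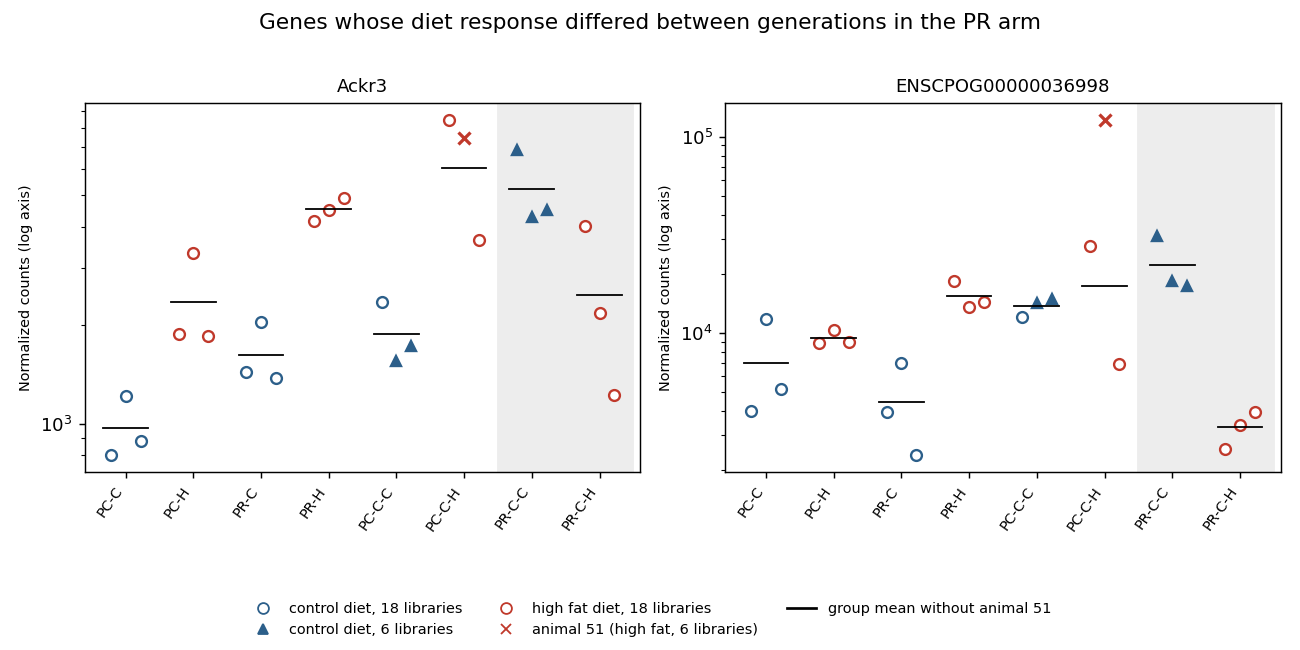
Normalized counts (log axis) of Ackr3 and ENSCPOG00000036998 in every animal of the 8 groups, with PR-C-C and PR-C-H shaded and the symbols of the plot of named genes. In F1 the PR-H animals lie above the PR-C animals, and in F2 the PR-C-H animals lie below the PR-C-C animals.

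Across all genes, a difference in diet response between the PR and PC arms of F2 was called for 0 genes with limma, 0 with edgeR and 27 with DESeq2 (0.177%). With limma 349 genes (2.64%) had an unadjusted p-value under 0.05. For Abcg1, Srebf1, Mylip, Scd1, Ppp1r2 and Samd4a the difference between the arms was 0.22 to 1.03 on the log2 scale, in each case more positive in the PR arm, with standard errors of 0.30 to 0.84 and adjusted p of 1 with limma. The PC arm was represented by 2 high fat animals, and 1 of its control animals lies in the other library set than the remaining 2.

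Gene lists were described by the named members they hold. Of 11 LXR target genes written down, 4 had a name and were tested, Abcg1, Srebf1, Mylip and Scd1. All 4 were called higher with limma, where 1.58% of all genes tested were. Their median log2 fold change was 2.74 in F2 of the PR arm and 2.74, 2.67 and 2.11 in PR-H against PR-C, PC-H against PC-C and PC-C-H against PC-C-C. Their names came from a list the study chose on the F1 PC animals of this same series, so the F1 PC value is not independent evidence of direction. The paper also singles out Abcg1, Srebf1 and Mylip as altered in all 4 diet comparisons, PR-C-H against PR-C-C included. The other values of these genes are therefore not independent of that choice either. The median over all genes tested was 0.0025.

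Of 13 protein folding genes tested, 0 were called with limma or DESeq2, where 2.61% of all genes tested were called with limma. None had an unadjusted p-value under 0.05, where all genes tested gave 15.8%. In the list 3 lay above and 10 below 0 (6565 of all 13224 genes tested lay below), with a median log2 fold change of -0.13. Hspa14, a member of the Hsp70 family, had 1116 ± 93.5 normalized counts in PR-C-C, against 918 ± 18.5 in PR-C-H (SD, n = 3 each, adjusted p = 0.35, limma). Dnajb1, an Hsp40 cochaperone, was on the other side, with 2474 ± 181 and 3001 ± 238 (adjusted p = 0.43, limma). PC-C-C animals 52, 54 and 55 had 836, 854 and 844 normalized counts of Hspa14, below all PR-C-H animals. For Dnajb1 they had 3028, 2123 and 1828, with animal 52 near the PR-C-H mean. The same list had a median of 0.59 in PC-H against PC-C, with all 13 above 0, and of 0.22 in PR-H against PR-C, with 9 above 0. The names of these genes come from the study's list for PC-H against PC-C, so their values there were part of the choice and are no evidence of direction, and differences between the comparisons were not tested over the list.

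In the other lists 0 genes were called with limma, a count near the 2.61% of all genes tested for lists of this size. The numbers with an unadjusted p-value under 0.05 were 2 of 12 cytoskeleton genes, 3 of 12 mitochondrial genes, 5 of 21 genes of transcription, chromatin and splicing, 2 of 6 mesenchymal and matrix genes, 1 of 5 interferon response genes and 1 of 6 blood and leukocyte genes, where all genes tested gave 15.8%. The mitochondrial list shares Hspe1 and Chchd4 with the protein folding list. Of 12 mitochondrial genes 11 lay below 0 (6565 of all 13224 genes tested did), with a median log2 fold change of -0.15. Among them Hars2, the mitochondrial histidyl tRNA synthetase, had 690.0, 739 and 734 normalized counts in PR-C-C, against 504, 489.6 and 554 in PR-C-H (log2 difference -0.48, adjusted p = 0.097, limma; adjusted p = 0.028, DESeq2). PC-C-C animals 52, 54 and 55 had 568, 745 and 674, so that animal 52 lay nearer PR-C-H.

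Arpc5l, a subunit of the actin-nucleating Arp2/3 complex, had 4807 ± 430.3 normalized counts in PR-C-C, against 3586 ± 386 in PR-C-H (SD, n = 3 each). Its adjusted p was 0.078 with limma and 0.025 with DESeq2. PC-C-C animals 52, 54 and 55 had 4355, 4050 and 3551.5, so animals 54 and 55 lay nearer PR-C-H. Qrich1, a transcriptional regulator, had 351, 425 and 499.8 in PR-C-C, against 735, 732 and 763 in PR-C-H, the lowest p of its list (adjusted p = 0.059, limma; 0.015, DESeq2), and PC-C-C animals 52, 54 and 55 had 479, 462 and 505, near the PR-C-C animals. Fntb, the beta subunit of protein farnesyltransferase and the 1 named member of the cholesterol synthesis list, had 794 ± 106 and 570.4 ± 48.9 (SD, n = 3 each). Its adjusted p was 0.095 with limma and 0.024 with DESeq2. PC-C-C animals 52, 54 and 55 had 593, 848 and 764, so animal 52 lay nearer PR-C-H. The endothelial, smooth muscle and adipocyte marker lists had 0 named members, so the labelled cell type could not be checked against its markers here. The median log2 fold change of the 6 blood and leukocyte genes was 0.032, 3 above and 3 below 0. Samsn1, an adaptor of leukocyte signalling, had 95.7 ± 20.9 normalized counts in PR-C-C, against 39.6 ± 7.04 in PR-C-H (SD, n = 3 each, adjusted p = 0.25, limma). PC-C-C animals 52, 54 and 55 had 48.3, 80.9 and 42.6, so animals 52 and 55 lay nearer PR-C-H.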

How the data were processed

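Polyadenylated RNA of 24 libraries was sequenced. The authors trimmed reads with Trimmomatic, aligned them with STAR and used DESeq2; versions, genome build, annotation and the counting program are not given in the sources used here. The deposited signal values proved to be read counts over the size factor that DESeq2 gives each library: multiplied back, 100% were whole reads within 0.001. All columns were used. How reads of near-identical copies or antisense genes were assigned is not known.

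limma 3.58.1 with an intensity trend was fitted to log2(normalized count + 1) of genes with a mean of at least 10, with 8 groups in 1 model of 23 libraries (15 residual degrees of freedom). PC-C-H animal 51, absent from the study's list, was left out. DESeq2 1.42.0 and edgeR 4.0.16 were run on the recovered reads; alternatives are given at the end. The methods were tested on simulated data. R 4.3.3, python 3.11.15, pandas 2.3.3 and matplotlib 3.10.9 were used. Animals of 1 group differed by a chi-square of at least 27.8 per degree of freedom, so no library was a duplicate. Where litters are not given, p-values measure the spread between these animals.

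Named genes were the 6 of interest to the study (Abcg1, Srebf1, Mylip, Scd1, Ackr3, Ppp1r2), other called genes with a name, up to 4 list members by lowest p and, by identifier, the 2 largest increases and 2 largest decreases among called genes averaging 50 or more, over all and in the class of 27. Animals, lists and library sets were chosen with earlier results of these data known. The reference table matched 0 identifiers; names come from a partly readable list of the study for PC-H. Sequences and positions were not used here.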

Additional observations from a re-analysis of the deposited data

Results flagged for a closer look

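The diet response of the PR arm differed between F2 and F1, by the test of the difference itself, for 10 genes with limma. Among genes named here these were Ackr3, with a difference of -2.71 on the log2 scale, and ENSCPOG00000036998, with -4.65. With the term for the library set limma called 0 genes, and both differences kept their sign, at -3.23 (adjusted p = 0.37) and -4.37 (adjusted p = 0.37); with the term in DESeq2 both passed (adjusted p = 0.028 and 0.024).

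PC-C-H animal 51 entered no test. It ate high fat chow and its library belongs to the set of 6, so it is the high fat animal of that set. It had 1181 normalized counts of Abcg1, 845 of Srebf1, 1711 of Mylip, 4333 of Scd1 and 739 of Samd4a, each above all 12 control animals. Its Ppp1r2, at 13769, lay within their range. Its 10 most abundant genes took 14.7% of its reads, against 6.83% to 8.74% in the other 23 libraries, and the part of this in the levels above was not tested. Groups of 3 animals were not searched for outlying samples.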

How the results depend on the processing

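No paired analysis was possible because the labels do not give litters, and no animal stands in more than 1 group. The paper states that diets were assigned so that siblings would not share a treatment, so littermates may stand on both sides. The 345 calls of PR-C-H against PR-C-C became 22 with animal 51 included, 689 with DESeq2, 1766 with array weights, 206 with the F2 groups alone, 0 with the library set term in limma and 31 with it in DESeq2, and 110 to 552 with 1 animal left out. The difference between arms (0 genes) gave 1 with animal 51 or a pseudocount of 0.1, 27 with DESeq2, 20 with array weights or the term in DESeq2, and 0 to 3 with 1 animal left out. The difference between generations (10 genes) gave 0 with animal 51 or the term in limma, 157 with DESeq2, 22 with the term in DESeq2, 6 with TMM, 344 with array weights, 30 with sex as a covariate and 1 to 152 with 1 animal left out. PR-C-H against PR-C (3 genes) gave 1 with animal 51, edgeR or sex, 15 with DESeq2, 26 with the term in DESeq2, 7 with array weights and 0 to 3 with 1 animal left out. With 1 animal left out of a group, the pair that stays is assumed to vary like the other groups.

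Of the 345 genes, the share with animals 54 and 55 nearer PR-C-C went from 82.6% to 72.8% or 90.1% with the scale divided at 0.4 or 0.6. The share that excludes animal 52 went to 68.1% at 0.4 and the share that includes it to 4.64% or 13.3%. ENSCPOG00000039839 changed sign with the library set term, to -1.65 with limma and -1.73 with DESeq2, and no other gene named by the rule did so under any alternative run. Of 540 refits of these genes 479 kept direction and side of the threshold, 56 lost the call and 3 gained it. The DESeq2 term and the leaving out of animals of other groups were chosen after seeing the data. The library set term rests on 1 library against 2. The lowest depth was that of PR-C-C animal 41, at 14061522 reads.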
